A study of Mus musculus with 10 samples.

Results

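The lipoprotein receptors and the Reelin pathway were described here by 8 genes of the 55450 in the deposited count table. They were Vldlr and Lrp8, the receptors shared by apolipoprotein E particles and Reelin; the endocytic receptors Lrp1, Lrp2 and Sorl1; the ligands Apoe and Reln; and Dab1, the adaptor inside the cell. The set was put together because Vldlr was strongly lower in knockout than in wild-type libraries while transcripts of sterol synthesis were higher. Those values chose the set, so Vldlr is described without a test, and the other 7 members are its partners by family or pathway. All 8 were among the 17729 genes with enough reads to be tested, and all 8 together were read from 1 fit over those genes.

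RNA came from the corneal endothelium, a monolayer that faces the anterior chamber and keeps the cornea clear, peeled from C57BL/6 mice aged 12 weeks. The Slc4a11-/- (KO) group had 5 libraries and the Slc4a11+/+ (WT) group had 5, each made from the pooled peelings of 6 eyes of 3 animals, so a library is a pool and no value belongs to 1 mouse. Slc4a11 encodes a membrane transporter of this layer, and the sources used here do not say how its allele was disrupted. The labels do not say whether the mice of the groups were littermates, and the p-values measure the spread between these pools.

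Receptors of the LDL receptor family are membrane proteins with cysteine-rich ligand-binding repeats outside the cell and, in the core members, an NPxY sequence inside it that recruits adaptors for endocytosis. Vldlr takes up triglyceride-rich particles that carry apolipoprotein E, and together with Lrp8 it also binds the secreted glycoprotein Reelin. Reelin binding leads Src family kinases to phosphorylate Dab1 on the receptor tails, a pathway best known for placing neurons in the layers of the brain; in the mouse eye, loss of Vldlr is known for abnormal vessels under the retina.

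Total counts ranged from 36026193 to 51008996 per library, and levels are given as CPM, the reads of a gene relative to a library total scaled by the TMM method. Slc4a11 averaged 95.4 ± 16.2 CPM in KO libraries and 3791 ± 362 CPM in WT libraries (SD, n = 5 each). The 11 markers of corneal endothelium, Col8a2 and Slc4a4 among them, summed to between 22191 and 26668 CPM in KO libraries and between 22342 and 25716 CPM in WT libraries, none was absent, and 2 of the 11 were lower in KO (Lmx1b and Grip1). The peelings also held stroma: 12 keratocyte markers summed to between 70601 and 94251 CPM in KO libraries and between 67138 and 103302 CPM in WT libraries. Of the 12, Kera and Ptgds were lower in KO, and Thy1, under 1 CPM in every library, was higher. The 12 epithelial markers stood apart in 3 KO libraries, at 2176 CPM in KO 1, 657 CPM in KO 2 and 4172 CPM in KO 5, against 57.6 CPM in KO 3, 253 CPM in KO 4 and 56.7 to 216 CPM in the WT libraries, and 10 of the 12 were higher in KO by the test. KO 5 was also low in long transcripts, judged on genes averaging at least 5 CPM. Genes with at least 6077 bases of exon had a median log2 deviation of -0.18 there, and those of at most 1894 bases 0.16. Deviations were taken from a gene's mean over the other libraries of the same genotype. WT 1 had a like pattern, with -0.10 for the long genes and 0.18 for the short ones. KO 3 and WT 3 leaned the other way, with 0.097 and 0.11 for the long genes and -0.073 and -0.13 for the short ones. Some calls ended when KO 1, KO 2 and KO 5 were left out together, and this is said beside the call of each such gene. The cell type markers are an exception, and for their calls it is not given. That fit keeps only KO 3 and KO 4 as KO libraries, so a call can end there through fewer libraries alone.

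Promoter sequence was looked up for all 8 members, in 15 windows of the 250 bases before an annotated RefSeq start (GRCm38.p6). The windows of Vldlr, Reln and Apoe are shown, written 5′ to 3′ on the strand of the gene, because these are the receptor with the largest difference between the genotypes and the ligands of its 2 pathways. Capitals mark the motifs searched on both strands: ACGTG and GCGTG, the cores of hypoxia response elements, CACGTG, an E-box that holds ACGTG on either strand, GGGCGG, the GC box, and CCAAT. The Vldlr window is chr19:27216770-27217019 on the plus strand, the Reln window chr5:22344706-22344955 on the minus strand and the Apoe window chr7:19699189-19699438 on the minus strand.
Vldlr: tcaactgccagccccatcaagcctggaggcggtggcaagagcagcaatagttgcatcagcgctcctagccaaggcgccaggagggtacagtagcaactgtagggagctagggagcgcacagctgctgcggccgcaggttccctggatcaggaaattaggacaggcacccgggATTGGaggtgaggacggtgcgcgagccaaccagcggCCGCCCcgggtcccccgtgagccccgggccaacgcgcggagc
Reln: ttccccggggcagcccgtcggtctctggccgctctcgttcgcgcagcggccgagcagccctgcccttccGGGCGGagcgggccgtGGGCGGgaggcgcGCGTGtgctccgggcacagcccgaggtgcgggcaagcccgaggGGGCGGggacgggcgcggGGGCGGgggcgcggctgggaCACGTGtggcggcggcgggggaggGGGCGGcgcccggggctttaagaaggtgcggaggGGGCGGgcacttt
Apoe: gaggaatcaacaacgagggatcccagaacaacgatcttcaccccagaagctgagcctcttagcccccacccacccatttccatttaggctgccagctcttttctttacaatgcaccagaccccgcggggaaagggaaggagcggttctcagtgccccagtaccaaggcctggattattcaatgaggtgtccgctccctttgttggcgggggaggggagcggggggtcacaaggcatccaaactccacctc

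The Vldlr window held 1 CCAAT on the minus strand, read here as ATTGG, 78 bases before the start, and 1 GC box on the minus strand, read as CCGCCC, 42 bases before it. It overlaps the first exon of a longer transcript of Vldlr in the GENCODE annotation, and the window before that longer transcript held none of the 5 motifs. The Reln window, 80.0% G and C, held 6 GC boxes, 1 GCGTG and 1 E-box 71 bases before the start. The Apoe window shown held none. Over all 32851 windows of mouse genes, ACGTG was found in 16.6%, GCGTG in 28.2%, CACGTG in 6.02%, GGGCGG in 32.7% and CCAAT in 33.8%. Among the 15 windows of the members the counts were 2 with ACGTG, 4 with GCGTG, 2 with CACGTG, 6 with GGGCGG and 2 with CCAAT. A match is a description of the letters and no more.

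Vldlr (ENSMUSG00000024924.14, chr19:27216484-27254231, plus strand, GRCm38), the receptor for apolipoprotein E particles and Reelin, was low in every KO library. It stood at 1.96, 1.77, 2.11, 1.48 and 1.87 CPM in KO 1 to KO 5, against 14.6, 19.2, 15.9, 9.28 and 13.3 CPM in WT 1 to WT 5. The KO values lay within a narrow band, and the lowest WT library, WT 4, was still above every KO library. The mean was 1.84 ± 0.236 CPM in KO libraries and 14.5 ± 3.64 CPM in WT libraries (SD, n = 5 each), so that KO libraries held 12.7% of the WT mean. The log2 fold change of KO over WT was -2.97 (SE 0.18), a 7.85-fold lower level. These values rested on 55 to 97 reads per KO library and 443 to 860 reads per WT library. When KO 1, KO 2 and KO 5 were left out, it was -2.99. In RNA from whole peelings, fewer cells that express a gene and less of its RNA per cell cannot be told apart.

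Of the 7 members other than Vldlr, 2 were lower in KO at an adjusted p under 0.05 (Apoe and Dab1), none was higher and 5 did not pass. Among all genes tested, 7.73% were lower and 7.59% higher, 15.3% in either direction. The set was chosen on this contrast, so the count is a description and nothing is read from it. Apart from Vldlr, the CPM of the libraries did not overlap between KO and WT for 2 of the other 7 members (Apoe and Dab1). Of all genes tested, 6.16% lay wholly lower and 5.88% wholly higher in KO. Vldlr did not overlap either, but it chose the set and is left out of this count. Adjusted p-values are from edgeR's quasi-likelihood test with Benjamini-Hochberg adjustment over all 17729 genes.

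**Figure D1:**
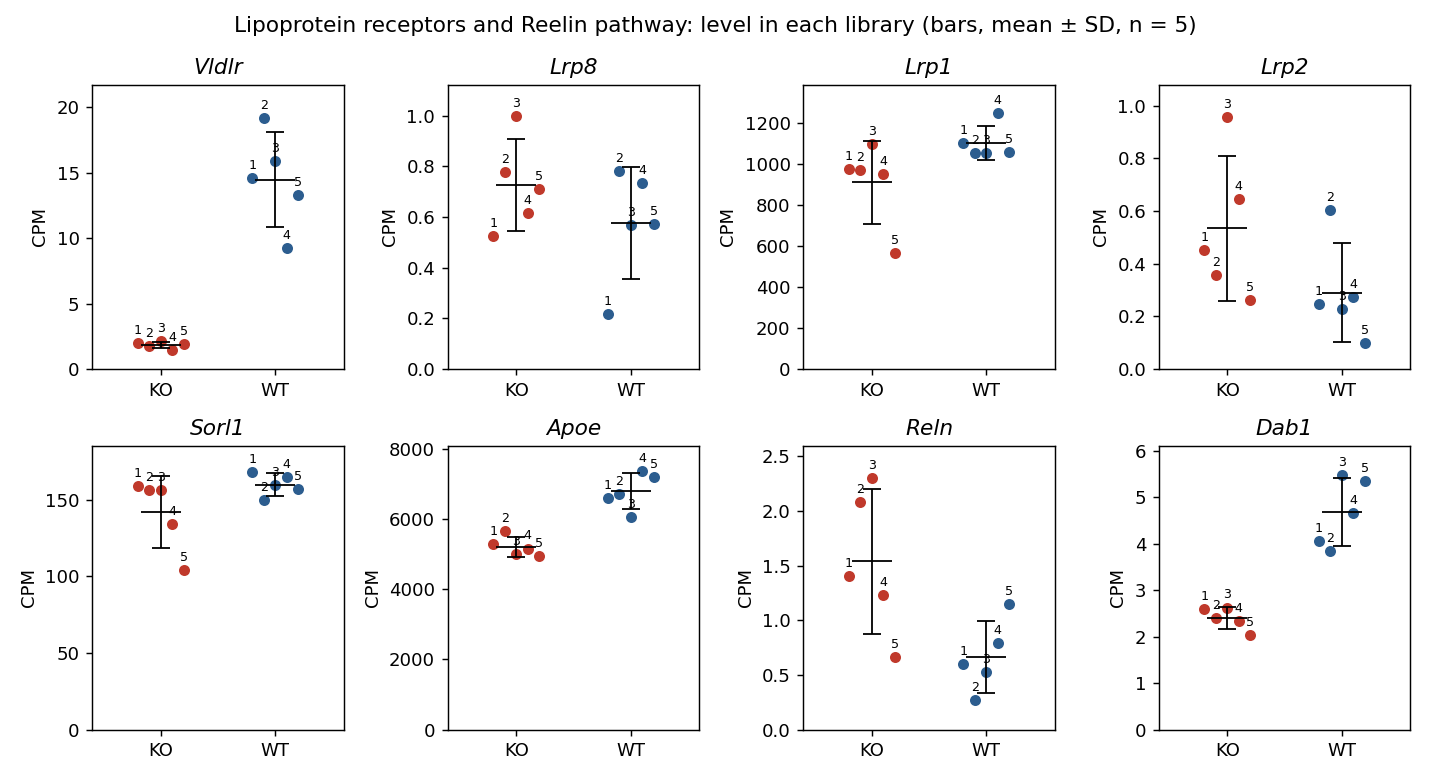
Level of each of the 8 members in CPM (vertical axes, each starting at 0), with 1 point per library, KO left of WT, and the mean ± SD beside the points. Vldlr, Apoe and Dab1 have KO points wholly under the WT points, between 1.48 and 2.11 CPM against 9.28 to 19.2 CPM for Vldlr, and the other 5 members overlap.

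Lrp8 (ENSMUSG00000028613.14, chr4:107802261-107876840, plus strand), the other Reelin receptor, was scarce in both genotypes. It had 0.525, 0.780, 0.999, 0.617 and 0.71 CPM in KO 1 to KO 5 and 0.218, 0.782, 0.569, 0.733 and 0.573 CPM in WT 1 to WT 5. The ranges overlapped, and WT 1, with 8 reads, was the lowest library. KO over WT gave a log2 fold change of 0.33 (SE 0.29), with an edgeR adjusted p of 0.47. At 22 to 46 reads per KO library and 8 to 35 reads per WT library, a difference of this size was not detectable at this depth.

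Per kilobase of exon, Vldlr and Lrp8 can be set side by side. Vldlr made up 68.8% to 79.6% of the summed Vldlr and Lrp8 level in KO libraries and 93.0% to 98.6% in WT libraries. Vldlr stayed the more abundant of the 2 Reelin receptors in all 10 libraries. Its ratio to Lrp8 per kilobase was 2.2 to 3.89 in KO libraries and 13.2 to 69.8 in WT libraries, highest in WT 1, where Lrp8 had 8 reads.

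Lrp1 (ENSMUSG00000040249.15, chr10:127538161-127621148, minus strand) is a large endocytic receptor for apolipoprotein E, alpha-2-macroglobulin and protease complexes. It was the most abundant receptor among the members, at 974, 972, 1096, 951 and 564 CPM in KO 1 to KO 5 and 1103, 1053, 1052, 1248 and 1058 CPM in WT 1 to WT 5. KO 5 lay far under the other KO libraries, and KO 3 lay within the WT range. The log2 fold change of -0.28 (SE 0.14) did not pass, with an edgeR adjusted p of 0.21, and without KO 5 it was -0.14 (edgeR adjusted p 0.237). The part of the long-transcript deficit of KO 5 in this value was not tested.

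Lrp2 (ENSMUSG00000027070.14, chr2:69424340-69586065, minus strand), or megalin, is the endocytic receptor of absorptive epithelia, and in the mouse its loss enlarges the eye. It was near the limit of detection, at 0.453, 0.358, 0.956, 0.644 and 0.261 CPM in KO 1 to KO 5 and 0.245, 0.604, 0.228, 0.272 and 0.0988 CPM in WT 1 to WT 5. These values came from 11 to 44 reads per KO library and 5 to 27 reads per WT library, and the ranges overlapped. Its log2 fold change was 0.89 (SE 0.45), with an edgeR adjusted p of 0.20. KO 3 was the highest library for Lrp2, and it was also the highest for the 7 markers of the pigmented cells of iris and ciliary body, which summed to 16.2 CPM there, against 4.32 to 8.66 CPM in the other KO libraries and 2.86 to 7.03 CPM in the WT libraries. Among the WT libraries, WT 2 was highest for Lrp2 at 0.604 CPM and had the lowest marker sum, 2.86 CPM. WT 5 was lowest for Lrp2 at 0.0988 CPM and had the highest WT sum, 7.03 CPM. The markers Tyr, Mlana, Slc45a2 and Rpe65 were under 1 CPM in every library, and the part of such cells in the Lrp2 value was not tested.

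Sorl1 (ENSMUSG00000049313.8, chr9:41964720-42124297, minus strand), a sorting receptor that carries both LDL receptor repeats and a VPS10 domain and routes the amyloid precursor protein, was abundant. It had 159, 156, 156, 134 and 104 CPM in KO 1 to KO 5 and 168, 149.6, 159, 165 and 157 CPM in WT 1 to WT 5. The first 3 KO libraries lay within the WT range, and KO 5 was the lowest of all. The log2 fold change was -0.17 (SE 0.10, edgeR adjusted p 0.28), and -0.08 without KO 5. An untested predicted gene, Gm16214, overlaps its exons on the opposite strand, and the sources used here do not state the strand setting of the authors' counting.

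Apoe (ENSMUSG00000002985.16, chr7:19696109-19699188, minus strand), the apolipoprotein that Vldlr, Lrp8 and Lrp1 bind, was the most abundant member by far. It had 5273, 5659, 5007, 5158 and 4953 CPM in KO 1 to KO 5 and 6599, 6722, 6063, 7366 and 7193 CPM in WT 1 to WT 5. Every KO library was under every WT library. The mean was 5210.0 ± 281 CPM in KO libraries and 6789 ± 516 CPM in WT libraries (SD, n = 5 each), a 1.3-fold lower level with a log2 fold change of -0.38 (SE 0.07, edgeR adjusted p 0.0051). This call was lost when KO 1, KO 2 and KO 5 were left out (-0.41, edgeR adjusted p 0.121) and with the epithelial markers as a covariate (-0.37, edgeR adjusted p 0.127), both at nearly the same fold change.

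Macrophages and Schwann cells also make Apoe. The 11 macrophage markers summed to between 261 and 400.3 CPM in KO libraries and between 215 and 351 CPM in WT libraries, with a median log2 fold change of 0.20. The 9 markers of Schwann cells and nerve summed to between 82.4 and 119 CPM in KO libraries and between 59.0 and 67.6 CPM in WT libraries, with 5 of the 8 tested higher in KO. Neither sum lay lower in KO, and their part in the Apoe level was not tested.

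Reln (ENSMUSG00000042453.14, chr5:21884454-22344702, minus strand) encodes Reelin itself. It had 1.41, 2.09, 2.30, 1.23 and 0.663 CPM in KO 1 to KO 5 and 0.6, 0.268, 0.524, 0.796 and 1.15 CPM in WT 1 to WT 5. KO 1 to KO 4 lay above every WT library, while KO 5 lay among the WT values. The mean was 1.54 ± 0.663 CPM in KO libraries and 0.667 ± 0.328 CPM in WT libraries (SD, n = 5 each), with 28 to 106 reads per KO library and 12 to 58 reads per WT library.

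The log2 fold change of Reln was 1.20 (SE 0.38), and it did not pass, with an edgeR adjusted p of 0.052. The value stood at the threshold and was called by 7 of the 18 alternatives: without KO 5 (1.39, edgeR adjusted p 0.0209), without WT 5 (1.49, edgeR adjusted p 0.0340), with the epithelial covariate (1.83, edgeR adjusted p 0.0102), by DESeq2 (1.20, adjusted p 0.0113), with total counts (edgeR adjusted p 0.0436), with no filter (0.0475) and with the filter at 1 CPM (0.0472). When KO 1, KO 2 and KO 5 were left out it was 1.40 with an edgeR adjusted p of 0.0828, and with the replicate number as a block 1.20 with an edgeR adjusted p of 0.155. An untested predicted gene, Gm10475, overlaps exons of Reln on the opposite strand. The 10 markers of blood and lymphatic vessels summed to between 82.4 and 105 CPM in KO libraries and between 105 and 156 CPM in WT libraries. That sum was mostly Kdr, which was lower in KO at 84.2 CPM in KO libraries and 121 CPM in WT libraries, whereas the 7 markers tested had a median log2 fold change of 0.95 and Plvap was higher in KO, at 1.52 CPM in KO libraries and 0.669 CPM in WT libraries. Lyve1 and Prox1, of the lymphatic cells that make Reelin in other organs, were under 1 CPM in every library, and the part of vessel cells in the Reln level was not tested.

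Dab1 (ENSMUSG00000028519.16, chr4:103619359-104744844, plus strand), the adaptor that Reelin receptors hold on their tails, fell in KO. It had 2.6, 2.4, 2.63, 2.34 and 2.04 CPM in KO 1 to KO 5 and 4.06, 3.84, 5.49, 4.67 and 5.35 CPM in WT 1 to WT 5. No KO library reached the lowest WT library. The mean was 2.4 ± 0.239 CPM in KO libraries and 4.68 ± 0.739 CPM in WT libraries (SD, n = 5 each), a 1.95-fold lower level with a log2 fold change of -0.96 (SE 0.13, edgeR adjusted p 5.9e-04). The call held under all 18 alternatives, with log2 fold changes between -1.03 and -0.85. When KO 1, KO 2 and KO 5 were left out it was -0.91 (edgeR adjusted p 0.0145).

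Per kilobase of exon, the order of the mean levels in KO libraries was Apoe at 2437 CPM per kb, Lrp1 at 51.4, Sorl1 at 12.5, Dab1 at 0.304, Vldlr at 0.182, Lrp8 at 0.0691, Reln at 0.0648 and Lrp2 at 0.0320 CPM per kb. In WT libraries it was Apoe at 3175 CPM per kb, Lrp1 at 62.2, Sorl1 at 14.1, Vldlr at 1.44, Dab1 at 0.592, Lrp8 at 0.0547, Reln at 0.0281 and Lrp2 at 0.0173 CPM per kb. Vldlr thus stood under Dab1 in KO and above it in WT, and no other pair changed places. Neighbours in the order had ranges that did not overlap, except Lrp8 with Reln and Reln with Lrp2, which overlapped in both genotypes. With the longest transcript in place of the merged exons, Reln stood above Lrp8 in KO libraries.

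Of the other receptors of the LDL receptor family, 9 are described here, and all were tested. Among them 4 fell in KO (Lrp4, Lrp1b, Ldlrad3 and Lrp12), none rose and 5 did not pass, a share called of 44.4% beside 15.3% of all genes tested. Their median log2 fold change was -0.06, beside 0.00 over all genes tested. For 5 of the 9 the libraries of the genotypes did not overlap, beside 12.0% of all genes.

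Lrp4, a receptor of agrin and a modulator of Wnt signalling, fell. It had 21.7, 22.5, 21.9, 18.9 and 14.6 CPM in KO 1 to KO 5 and 39.3, 37.2, 41.6, 42.5 and 41.8 CPM in WT 1 to WT 5. The groups were far apart, with a log2 fold change of -1.02 (SE 0.10, edgeR adjusted p 7.6e-05). Lrp1b, a large relative of Lrp1, averaged 7.92 ± 1.66 CPM in KO libraries and 13.0 ± 1.49 CPM in WT libraries (SD, n = 5 each). Its log2 fold change was -0.72 (edgeR adjusted p 0.0060), and the call was lost with the epithelial covariate (-0.54, edgeR adjusted p 0.0612).

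Ldlrad3 and Lrp12 fell by less. Ldlrad3 averaged 235 ± 17.7 CPM in KO libraries and 305 ± 16.7 CPM in WT libraries (log2 fold change -0.37, edgeR adjusted p 0.0032). Lrp12 averaged 42.6 ± 2.99 CPM in KO libraries and 53.1 ± 5.80 CPM in WT libraries (log2 fold change -0.32, edgeR adjusted p 0.018; SD, n = 5 each), and it no longer passed when KO 1, KO 2 and KO 5 were left out (edgeR adjusted p 0.0781), with the epithelial covariate (0.121) and with the replicate block (0.0665).

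Of the receptors that did not pass, the Wnt co-receptors Lrp5 and Lrp6 had log2 fold changes of 0.02 and -0.06, and both signs turned under some of the alternatives. Lrp3 had one of -0.05 (edgeR adjusted p 0.64). Lrp10 had 212 ± 11.9 CPM in KO libraries and 188 ± 14.2 CPM in WT libraries with no overlap, and an edgeR adjusted p of 0.089. Lrp11 had 41.6 ± 7.56 CPM in KO libraries and 31.8 ± 3.73 CPM in WT libraries, with an edgeR adjusted p of 0.054 that passed without KO 2 (0.0056), with KO 1, KO 2 and KO 5 left out (0.00899), by DESeq2 (0.0192) and with no filter (0.0456). A predicted gene overlaps Lrp10 on the opposite strand.

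Summed over 13 receptors (the 9 and Vldlr, Lrp8, Lrp1 and Lrp2), the level was 164 to 220.0 CPM per kb in KO libraries and 211 to 237 CPM per kb in WT libraries, with KO 5 the lowest. Lrp1 made up 19.4% to 28.1% of that sum in KO libraries and 27.7% to 29.8% in WT libraries. Vldlr made up 0.0705% to 0.113% of it in KO libraries and 0.389% to 0.894% in WT libraries. Vldlr was thus a minor receptor transcript of the peelings in both genotypes.

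**Figure D2:**
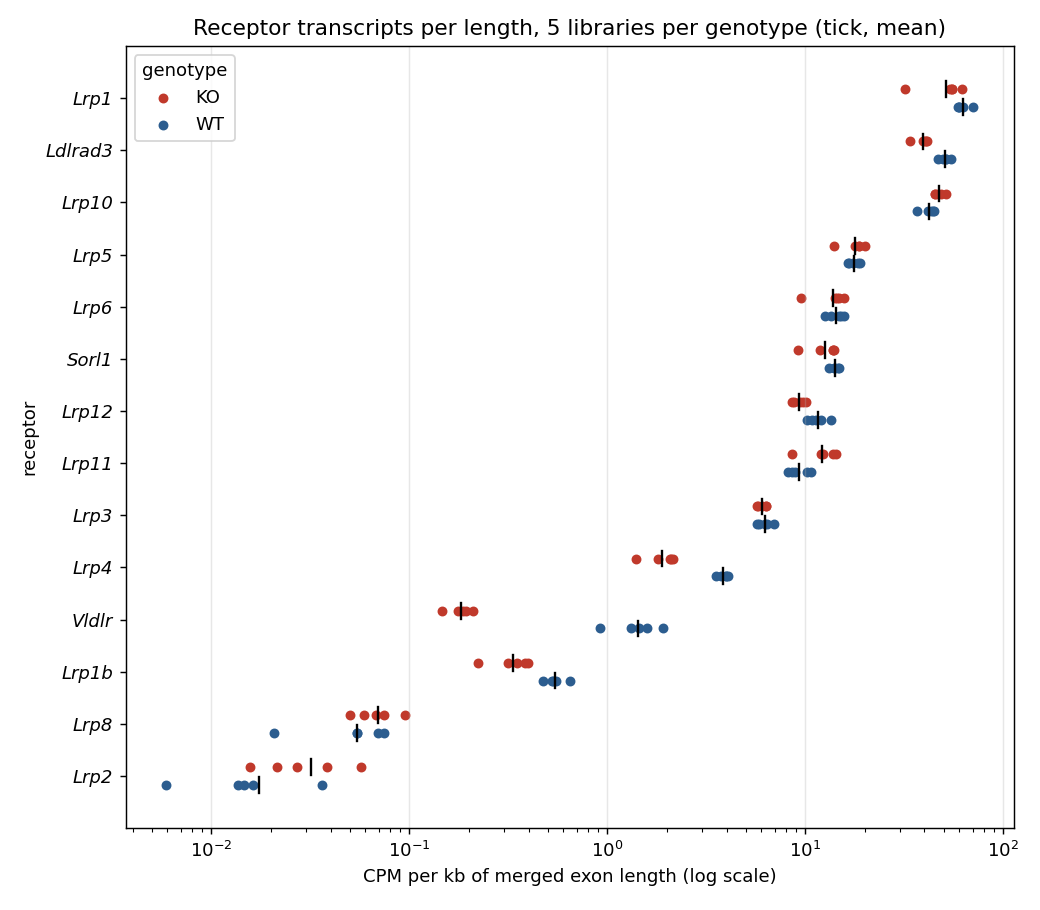
Level of the receptors named in the text in every library, in CPM per kb of merged exon length on a log axis, with 1 row per receptor and KO drawn above WT. Vldlr shows the widest gap between the genotypes among those drawn, and Lrp1 lies at 31.8 to 61.9 CPM per kb in KO libraries and 59.4 to 70.5 CPM per kb in WT libraries.

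The VPS10 receptors are the relatives of Sorl1 in its sorting domain. Of 4 tested, 2 fell, 0 rose and 2 did not pass, 50% called beside 15.3% of all genes tested, with a median log2 fold change of -0.53. Sorcs3 had 9.08, 10.1, 13.2, 13.0 and 7.60 CPM in KO 1 to KO 5 and 25.4, 37.3, 38.9, 27.4 and 32.5 CPM in WT 1 to WT 5, without overlap (log2 fold change -1.61, SE 0.16, edgeR adjusted p 8.8e-05). Sorcs2 averaged 13.1 ± 1.6 CPM in KO libraries and 23.9 ± 1.03 CPM in WT libraries (SD, n = 5 each; log2 fold change -0.87, edgeR adjusted p 3.4e-05). Sort1, the abundant sortilin, averaged 267 CPM in KO libraries and 303 CPM in WT libraries and did not pass (edgeR adjusted p 0.19).

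Ligands that these receptors share beyond Apoe were counted in a list of 12, all tested: 2 rose, 2 fell and 8 did not pass, 33.3% called beside 15.3% of all genes tested, with a median log2 fold change of 0.14. Thbs1, thrombospondin-1, a ligand that Vldlr and Lrp1 take up, had 4652, 3150.3, 4256, 4879 and 2619 CPM in KO 1 to KO 5 and 2016, 2012, 2127, 2573 and 2599.8 CPM in WT 1 to WT 5. KO 5 was only just above the highest WT library (log2 fold change 0.79, edgeR adjusted p 0.0078). Plat, tissue plasminogen activator, a protease that Lrp1 clears, averaged 124 ± 12.5 CPM in KO libraries and 76.1 ± 11.2 CPM in WT libraries (log2 fold change 0.71, edgeR adjusted p 0.0012; SD, n = 5 each). Clu, clusterin, fell by 0.41 and App, the amyloid precursor that Sorl1 sorts, by 0.27 on the log2 scale (edgeR adjusted p 0.0036 and 0.024). Neither passed when KO 1, KO 2 and KO 5 were left out (edgeR adjusted p 0.0528 for Clu and 0.267 for App), and App did not pass with the epithelial covariate (0.310), with the replicate block (0.0862), with no filter (0.0888) or without any 1 of KO 4, KO 5, WT 4 and WT 5 (up to 0.0671).

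**Figure D3:**
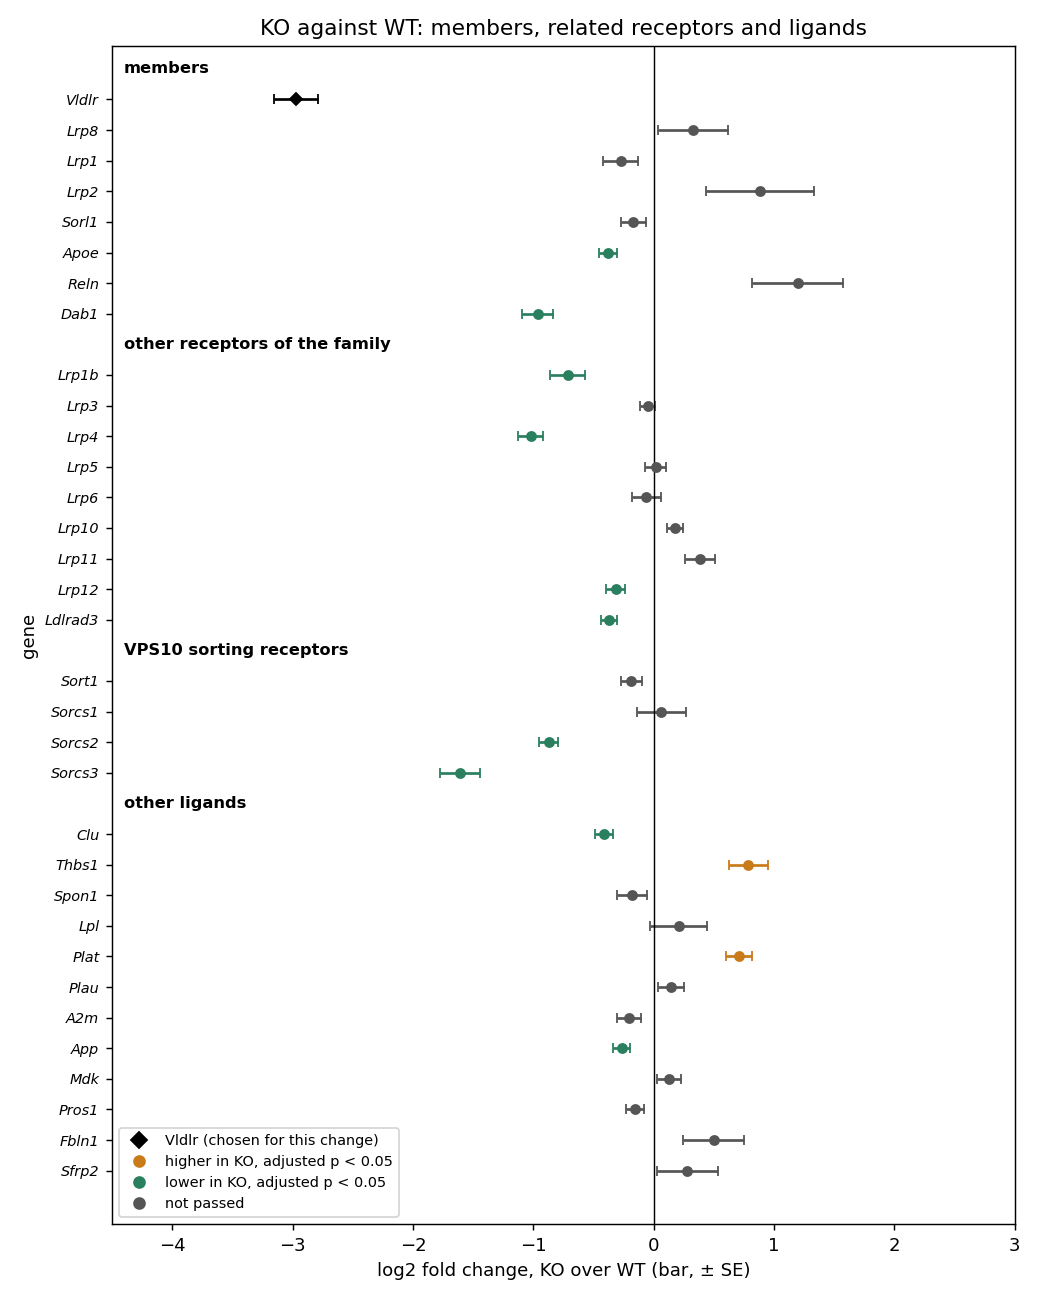
Log2 fold change of KO over WT (horizontal axis, point with a bar of ± SE) for the 8 members, 9 other receptors of the family, the VPS10 receptors and the other ligands, with colour for genes higher or lower in KO at an edgeR adjusted p under 0.05. Vldlr, drawn as a diamond because it chose the set, lies at -2.97, with Sorcs3 at -1.61 and Thbs1 at 0.79.

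Genes of the Reelin pathway downstream of Dab1 were also listed. Of 28 genes tested, 1 rose, 2 fell and 25 did not pass, 10.7% called beside 15.3% of all genes, with a median log2 fold change of -0.02. The kinases Fyn and Src that phosphorylate Dab1 had log2 fold changes of 0.04 and 0.11, and the adaptors Crk and Crkl that bind it -0.08 and 0.05, none of which passed. Itga3, the integrin subunit that binds Reelin and laminin, rose to 229 ± 33.4 CPM in KO libraries, against 178 ± 9.79 CPM in WT libraries (edgeR adjusted p 0.025; SD, n = 5 each), and lost its call without KO 1, KO 4 or WT 3 (up to 0.0676) and with the replicate block (0.0767). Its partner Itgb1 fell by 0.27 and Pik3r1, a regulatory subunit of PI3 kinase, by 0.33 on the log2 scale (edgeR adjusted p 0.014 and 0.016). Itgb1 and Pik3r1 no longer passed with KO 1, KO 2 and KO 5 left out (edgeR adjusted p 0.0695 and 0.0715), with the epithelial covariate (0.104 and 0.130) or with the replicate block (0.0697 and 0.0741).

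Chaperones, endocytic adaptors, proteases and turnover factors of the receptors were listed as 16 genes, all tested. Of these, 2 rose, none fell and 14 did not pass, 12.5% called beside 15.3% of all genes, with a median log2 fold change of 0.01. The clathrin adaptor Dab2 averaged 115 ± 7.67 CPM in KO libraries and 96.1 ± 4.14 CPM in WT libraries (edgeR adjusted p 0.012; SD, n = 5 each). Dab2 no longer passed with KO 1, KO 2 and KO 5 left out (edgeR adjusted p 0.107), with the epithelial covariate (0.0865) or with the replicate block (0.0501). The protease Furin rose by 0.28 on the log2 scale (edgeR adjusted p 0.015), and its call was lost with the replicate block (0.0576). The chaperone Lrpap1 and the ligase Mylip, which marks Vldlr and Lrp8 for degradation, had log2 fold changes of -0.03 and 0.02 and did not pass.

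Among 22 genes of lipoprotein and cholesterol transport, 17 were tested: 3 rose, 3 fell and 11 did not pass, 35.3% called beside 15.3% of all genes tested, with a median log2 fold change of -0.05. Apod, a lipocalin carried on lipoproteins, averaged 7826 ± 697 CPM in KO libraries and 5154 ± 1111 CPM in WT libraries (log2 fold change 0.60, edgeR adjusted p 0.013; SD, n = 5 each). The Apod call was lost with KO 1, KO 2 and KO 5 left out (0.47, edgeR adjusted p 0.223) and with the epithelial covariate (0.56, edgeR adjusted p 0.120). The sterol carrier Stard4 and the HDL receptor Scarb1 rose by 0.67 and 0.26 on the log2 scale (edgeR adjusted p 0.0018 and 0.039), with the Scarb1 call lost in 7 of 10 fits without 1 library, and also with the epithelial covariate (0.0581), the replicate block (0.115), total counts (0.0613) and no filter (0.0644). Lipa, the lysosomal lipase that frees cholesterol from lipoproteins, fell by 0.41, Osbpl5, an oxysterol-binding protein, by 0.33 and Angptl4, an inhibitor of lipoprotein lipase, by 1.02 on the log2 scale (edgeR adjusted p 0.0013, 0.0026 and 0.0033).

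Sterol sensing and synthesis crossed the choice of the set: 10 of 14 genes, 71.4%, were higher in KO, beside 7.59% of all genes tested, with Insig1 at 112 ± 13.8 CPM in KO libraries and 42.4 ± 4.11 CPM in WT libraries (SD, n = 5 each), and log2 fold changes of 1.56 for Idi1 and 1.25 for Hmgcs1. They are given as a description.

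Of 11 genes of the LXR receptors and their targets, which raise cholesterol efflux and, through Mylip, lower Vldlr protein, 3 rose, 1 fell and 7 did not pass, 36.4% called beside 15.3% of all genes tested, with a median log2 fold change of 0.06. Nr1h3, LXR alpha, averaged 14.5 ± 0.820 CPM in KO libraries and 10.4 ± 0.218 CPM in WT libraries (log2 fold change 0.49, edgeR adjusted p 3e-04; SD, n = 5 each). Lpcat3 and Srebf1 rose by 0.30 and 0.36 and Arl4c fell by 0.30 on the log2 scale (edgeR adjusted p 0.013, 0.043 and 0.0027), the Srebf1 call being lost in 7 of 10 fits without 1 library and with the replicate block (0.0622). The Arl4c call was lost with KO 1, KO 2 and KO 5 left out (-0.24, edgeR adjusted p 0.101). Lpcat3 and Srebf1 share exon sequence on opposite strands with the tested genes Emg1 and Rai1. The efflux transporter Abca1 had a log2 fold change of -0.46 that did not pass (edgeR adjusted p 0.11).

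Transcription factors tied to Vldlr in other tissues, such as the hypoxia factors and the stress factors Atf4 and Ddit3, were listed as 12 genes, and all but Pparg were tested. Of these 11, 0 rose, 1 fell and 10 did not pass, 9.09% called beside 15.3% of all genes, with a median log2 fold change of -0.01. Arnt, the partner of the hypoxia factors, averaged 42.1 ± 2.73 CPM in KO libraries and 48.9 ± 3.07 CPM in WT libraries (edgeR adjusted p 0.032; SD, n = 5 each), and the call was lost in 7 of 10 fits without 1 library, with KO 1, KO 2 and KO 5 left out (0.293), with the epithelial covariate (0.303), with the replicate block (0.0836) and with total counts (0.0779). Hif1a itself averaged 1199.8 CPM in KO libraries and 1422 CPM in WT libraries and did not pass (edgeR adjusted p 0.10).

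The protein-coding genes whose pattern over the 10 libraries was nearest to that of Vldlr were found by the root mean square difference of log2 CPM after each gene's own mean was subtracted. They were Atp7b, a copper transporter, at 0.335, Frem3, an extracellular matrix protein, at 0.375, Cr2, a complement receptor, at 0.393, Vwde at 0.437 and the circadian repressor Ciart at 0.488. All lay wholly lower in KO, as the measure selects. Frem3 was the most abundant of them, at 144 ± 35.2 CPM in KO libraries and 826 ± 20.5 CPM in WT libraries (SD, n = 5 each). Atp7b was the scarcest, at 0.322 to 0.782 CPM in KO libraries and 2.66 to 4.05 CPM in WT libraries. Within WT, Vldlr was highest in WT 2 and lowest in WT 4. Vwde, Atp7b, Frem3 and Cr2 were also highest in WT 2, and Cr2 was also lowest in WT 4. Ciart, in contrast, was at its lowest WT level in WT 2, at 4.52 CPM. The measure took in the WT libraries as well, so it also selects for such likeness.

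**Figure D4:**
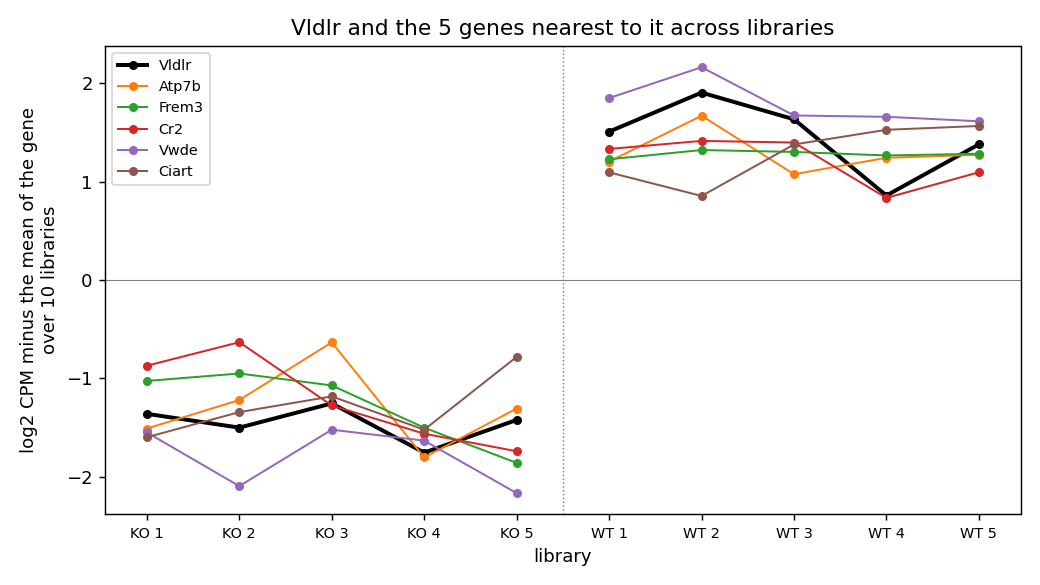
Log2 CPM minus the gene's mean over the 10 libraries (vertical axis) for Vldlr (thick black line) and the 5 nearest genes, KO libraries left of WT libraries; a line joins the points of 1 gene and has no other meaning. In WT 4 Vldlr dips to 0.86 above its mean, with Cr2 at 0.84, while Ciart is higher there at 1.53.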

How the data were processed

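Polyadenylated RNA of 10 libraries was sequenced as stranded paired-end reads, per the labels' protocols. The deposited values are raw read counts per gene, made by the authors; per the submitters' processing notes, the tools included HISAT2 2.1.0, featureCounts (Subread 1.6.4), Trim Galore 0.6.4 and cutadapt 2.4, and the build was GRCm38.p6. The sources used here do not state the strand setting, the annotation release or how multi-mapping reads were counted. Reads split between related receptors or opposite-strand genes could therefore be counted differently from what another setting would give.

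All 55450 identifiers matched GENCODE vM21, which gave symbols, coordinates and exon lengths (for Ddit3, with 2 identifiers, the one with more counts was used). Samples were grouped by the genotype in the labels. Genes were kept by filterByExpr (minimum count 10, minimum total 15), scaled by TMM and tested with the quasi-likelihood F test of edgeR 4.0.16 in R 4.3.3 (limma 3.58.1), without covariates. A call is a Benjamini-Hochberg adjusted p under 0.05 over 17729 genes. The fit was tested on simulated data. Tested genes held 99.9% of the counts of each library, and the biological coefficient of variation common to all genes was 16.3%, so the spread between pools and, under about 1 CPM, the few reads limit precision. Levels per length are CPM per kb of merged exons.

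Members and lists were chosen with earlier results of these data known. Named genes were the 8 members, Slc4a11, every receptor of the family list used here, for each other list up to 3 called genes per direction, ranked by p, and the 5 genes nearest to Vldlr on log2 CPM (prior count 2), without predicted genes. Other genes of the lists were picked as examples once their values were known. A few list genes are not reported here, and the list counts leave them out. Promoters are from RefSeq, and protein sequences were not used here. No libraries of a group matched within counting noise. Same-numbered KO and WT libraries did not deviate together (correlations -0.42 to 0.09). The labels do not say that the numbers pair samples, and this check cannot settle it. Alternatives were DESeq2 1.42.0, its size factors in edgeR, total counts, no filter, at least 1 CPM in at least 5 libraries, a replicate block, the mean log2 CPM of the epithelial markers as covariate, KO 1, KO 2 and KO 5 left out together, each library left out in turn, and for levels the longest transcript.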

Additional observations from a re-analysis of the deposited data

Results flagged for a closer look

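Among 96 groups of 5 libraries examined for the named genes, 10 held a library that lay far from the other 4 of its genotype. Chance gives about 1 in 20 where groups are independent. These groups share the same libraries and are not independent, so the count cannot be set against that rate. KO 5 was that library in 7 of the 10. It was low for Lrp1, at 564 CPM against 951 to 1096 CPM in the other KO libraries, for Lrp6, at 129.6 CPM, for Ldlrad3, at 205 CPM, and for Furin, at 110.4 CPM. It was high for Stard4, at 43.5 CPM, for Idi1, at 33.9 CPM, and for Hmgcs1, at 141 CPM. Elsewhere, WT 4 was high for Lrp1, at 1248 CPM, WT 3 was low for Plat, at 56.6 CPM, and WT 2 was high for Atp7b, at 4.05 CPM. Vldlr, Apoe, Reln and Dab1 had no such library in either genotype.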

How the results depend on the processing

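Of 48 named genes, 29 kept their direction and their side of the threshold under every one of the 18 alternatives that tested them. Of the 38 called genes, 23 kept their call. Named genes were picked partly by their calls or by likeness to Vldlr, so these counts describe them alone. Of all genes tested, 15.3% were called. The genes called numbered 2716 (1346 higher and 1370 lower in KO), 3578 by DESeq2, 1105 with KO 1, KO 2 and KO 5 left out, 1142 with the epithelial covariate and 1691 with the replicate block. That block leaves fewer degrees of freedom, and its numbers are not said to pair the libraries. Leaving out KO 1, KO 2 and KO 5 keeps only KO 3 and KO 4 as KO libraries. The epithelial covariate was 0.90 to 6.44 in KO libraries and 0.66 to 2.81 in WT libraries, so it partly followed genotype. Both fits lose precision by this, and its part in the calls lost under them was not tested. No KO library correlated best with its own number in WT. Leaving out 1 library gave 1815 to 3094. With total counts in place of TMM 1555 were higher and 1054 lower. Beside Vldlr, 1 to 3 of the other members were called. With the filter at 1 CPM only 6 of the 8 members were tested, as Lrp8 and Lrp2 dropped out. With those 3 libraries left out, the calls were 1 for the chaperones and adaptors, 1 downstream of Dab1, 2 ligands and 0 transcription factors. With the epithelial covariate they were 2 for the other receptors, 1 for the chaperones, 1 downstream of Dab1 and 0 transcription factors. With the replicate block they were 0, 0 and 0 for the last 3 of these lists. DESeq2 called 4 chaperones and adaptors and 2 transcription factors, total counts 4 and 0. Without 1 library the ranges were 2 to 3 chaperones, 2 to 4 downstream of Dab1 and 0 to 1 transcription factor. The sign of Lrp5 turned without KO 3 (-0.025), WT 2 (-0.0074) and WT 3 (-0.0035), and that of Lrp6 with the 3 KO libraries left out (0.079), with the epithelial covariate (0.11) and without KO 5 (0.050). Without 1 library Lrp5 ranged from -0.025 to 0.095 and Lrp6 from -0.11 to 0.050. The cause was not tested. Depth limits Lrp8, Lrp2 and Reln, with 5 to 106 reads per library.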
